A study of Mus musculus with 10 samples.

Results

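The basement membrane genes described here were Col4a1, Col4a2, Lama2, Lama4, Lamb2, Lamc1, Nid1, Nid2, Hspg2 and Col18a1, 10 of the 19938 genes that the arrays of this mouse muscle series measured under a single symbol. They were chosen as the type IV collagen, laminin and nidogen chains and the linked heparan sulfate proteoglycans of muscle and vessel basement membranes. Each was measured by 1 probe set, a group of oligonucleotides read together as a single signal. All 10 had a mean signal above the filter on low values, which kept 11963 genes for testing.

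A basement membrane is a thin sheet of matrix that lies against cells. In skeletal muscle it wraps every fibre and every capillary. Laminin trimers bind receptors on the cell surface and polymerise into a first network, type IV collagen forms a second, covalently cross-linked network, and nidogens and the proteoglycan perlecan connect both. In muscle, laminin that holds the alpha-2 chain links the fibre surface to dystroglycan and to an integrin, and loss of this chain causes a muscular dystrophy in mice and humans. Much of the type IV collagen and the alpha-4 laminin chain of muscle comes from capillaries and connective tissue cells rather than from the fibres.

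RNA came from the gastrocnemius, a large muscle of the calf, and all animals were male C57BL/6 mice. F0 EX animals had voluntary exercise, F0 SED animals led a sedentary life, and both were 28 weeks old and had been mated with partners of the same exposure. The descendants fell into F1 EX and F1 SED and, a generation later, F2 EX and F2 SED. They were 8 weeks old and none of them exercised, and EX and SED stand for the life of their F0 ancestors. F2 animals came from matings of F1 littermates. Each array held the pooled RNA of 5 animals, with 1 pool for each F0 group and 2 pools for each of the 4 descendant groups, 10 arrays in all. No label gives a mutation or transgene. Whether the 2 pools of a group came from different animals is not stated in the labels, so the p-values measure spread between pools that may be no more than technical. No F0 group had a replicate pool. In F0 against descendants the spread came from the descendant pools and from the F0 EX and F0 SED difference left after a shared ancestry effect. It does not measure spread between replicate F0 pools. Exercise sets F0 EX animals apart from all descendants, whereas F0 SED animals and SED descendants did not exercise. Generation and age differ together between F0 animals and descendants, so these cannot be told apart. In such bulk RNA, fewer cells of a type and less RNA for each cell cannot be told apart either.

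Col4a1 and Col4a2 are neighbours that are read in opposite directions from a shared start region, and their signals are compared below, so both promoter windows are shown. Those of Hspg2 and Lamb2 are shown as windows of a member called lower in F0 pools and of a member that was not. They are RefSeq windows of assembly GRCm38.p6 that run from 250 bases before to 50 bases after the annotated start, 5′ to 3′ on the strand of the gene. Capitals mark GGGCGG, a GC box of the kind that Sp1-family factors bind, and CCAAT, the CCAAT box, each on either strand (CCGCCC and ATTGG on the other).
Col4a1: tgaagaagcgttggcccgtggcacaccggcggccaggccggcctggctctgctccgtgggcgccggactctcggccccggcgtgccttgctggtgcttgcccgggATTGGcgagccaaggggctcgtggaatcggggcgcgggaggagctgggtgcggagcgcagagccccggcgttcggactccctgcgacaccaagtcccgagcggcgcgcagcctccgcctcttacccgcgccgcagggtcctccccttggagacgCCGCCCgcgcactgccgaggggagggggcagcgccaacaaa
Col4a2: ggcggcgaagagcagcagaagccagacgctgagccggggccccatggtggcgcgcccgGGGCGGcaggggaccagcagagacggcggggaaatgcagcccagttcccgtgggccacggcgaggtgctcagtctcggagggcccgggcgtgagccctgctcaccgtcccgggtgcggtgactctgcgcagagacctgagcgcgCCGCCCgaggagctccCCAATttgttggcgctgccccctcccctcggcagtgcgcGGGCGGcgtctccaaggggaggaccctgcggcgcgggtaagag
Hspg2: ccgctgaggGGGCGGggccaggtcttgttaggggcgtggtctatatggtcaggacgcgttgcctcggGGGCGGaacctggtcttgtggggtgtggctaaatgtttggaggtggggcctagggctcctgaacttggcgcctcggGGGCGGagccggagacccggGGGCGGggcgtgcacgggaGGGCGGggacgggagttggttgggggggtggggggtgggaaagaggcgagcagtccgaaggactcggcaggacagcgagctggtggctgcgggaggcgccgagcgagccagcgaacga
Lamb2: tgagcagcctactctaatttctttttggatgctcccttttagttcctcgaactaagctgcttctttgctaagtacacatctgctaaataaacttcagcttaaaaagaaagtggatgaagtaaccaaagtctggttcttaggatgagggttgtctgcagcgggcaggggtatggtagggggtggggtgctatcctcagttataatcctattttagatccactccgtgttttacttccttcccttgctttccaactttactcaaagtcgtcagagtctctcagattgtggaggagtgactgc
The Col4a1 window is chr8:11312777-11313076 on the minus strand and the Col4a2 window chr8:11312555-11312854 on the plus strand. Their annotated starts lay 21 bases apart, and the windows shared 78 bases (chr8:11312777-11312854), which hold 1 GC box. The Hspg2 window is chr4:137468553-137468852 and the Lamb2 window chr9:108479612-108479911, both on the plus strand. The Hspg2 window held 5 GC boxes, that of Col4a2 3 and that of Col4a1 1, and that of Lamb2 held 0. A GC box was found in 35.7% of the 32851 RefSeq windows of this length, 4 or more in 5.49% and a CCAAT box in 37.4%. Windows were given for 7 of the 10 genes, with 2 for Col18a1. The Nid1 and Lama2 windows held 1 GC box each, and the 2 windows of Col18a1 held 0 and 3. The windows of Col4a1, Col4a2 and Nid1 and 1 window of Col18a1 held 1 CCAAT box each. CG dinucleotides numbered 37 in the Col4a1 window, 33 in that of Col4a2, 27 in that of Hspg2 and 4 in that of Lamb2, against a median of 7 over all windows. A match is a description of the letters and not a bound site.

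Signals are on a log2 scale, so that a difference of 1 is a 2-fold change, and a signal cannot be compared between probe sets of different genes. Of the markers that define the labelled tissue, the skeletal actin Acta1 had 13.13 to 13.54 over the 10 arrays, the muscle creatine kinase Ckm 12.75 to 13.31 and the fast myosin Myh4 12.6 to 13.2, where the filter on low values lay at 3.23. The F0 SED pool and F1 EX pool 1 stood apart from the other arrays over all genes, with median correlations to the others of 0.974 and 0.979, against 0.986 to 0.993 for the rest. The 2 F1 EX pools differed by 0.5 or more in 1830 genes, against 279 to 344 genes for the pools of each other descendant group. Where a call or its size depended on either of these 2 arrays, the value without it follows.

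The first comparison asked how the muscle of the older F0 animals, exercised or sedentary, differed from that of the young descendants. It set 2 F0 pools against 8 descendant pools. In 9 of the 10 genes both F0 pools lay below all 8 descendant pools, where 6.65% of all genes did so. Of the 10 genes, 7 were lower at an adjusted p under 0.05 in limma's moderated test, and none was higher, while 1.54% of all genes were called lower and 0.794% higher. The median difference was -0.59 over the 10 genes and -0.02 over all genes tested. In SED pools alone, where no animal had exercised, the median of the 10 genes was -0.58, with 9 below 0. In EX pools alone it was -0.64, with 10 below 0. Both of these fits hold 1 F0 pool. The 7 genes were Col4a1, Col4a2, Lama4, Lamc1, Nid1, Nid2 and Hspg2, and the 3 that missed the threshold were Lama2, Lamb2 and Col18a1. Without the F0 SED pool, which left 1 F0 pool, fewer genes were called, among the 10 and over all genes, and the median was -0.64. Without F1 EX pool 1, 9 of the 10 genes were called lower (median -0.59), and calls over all genes rose as well.

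**Figure D1:**
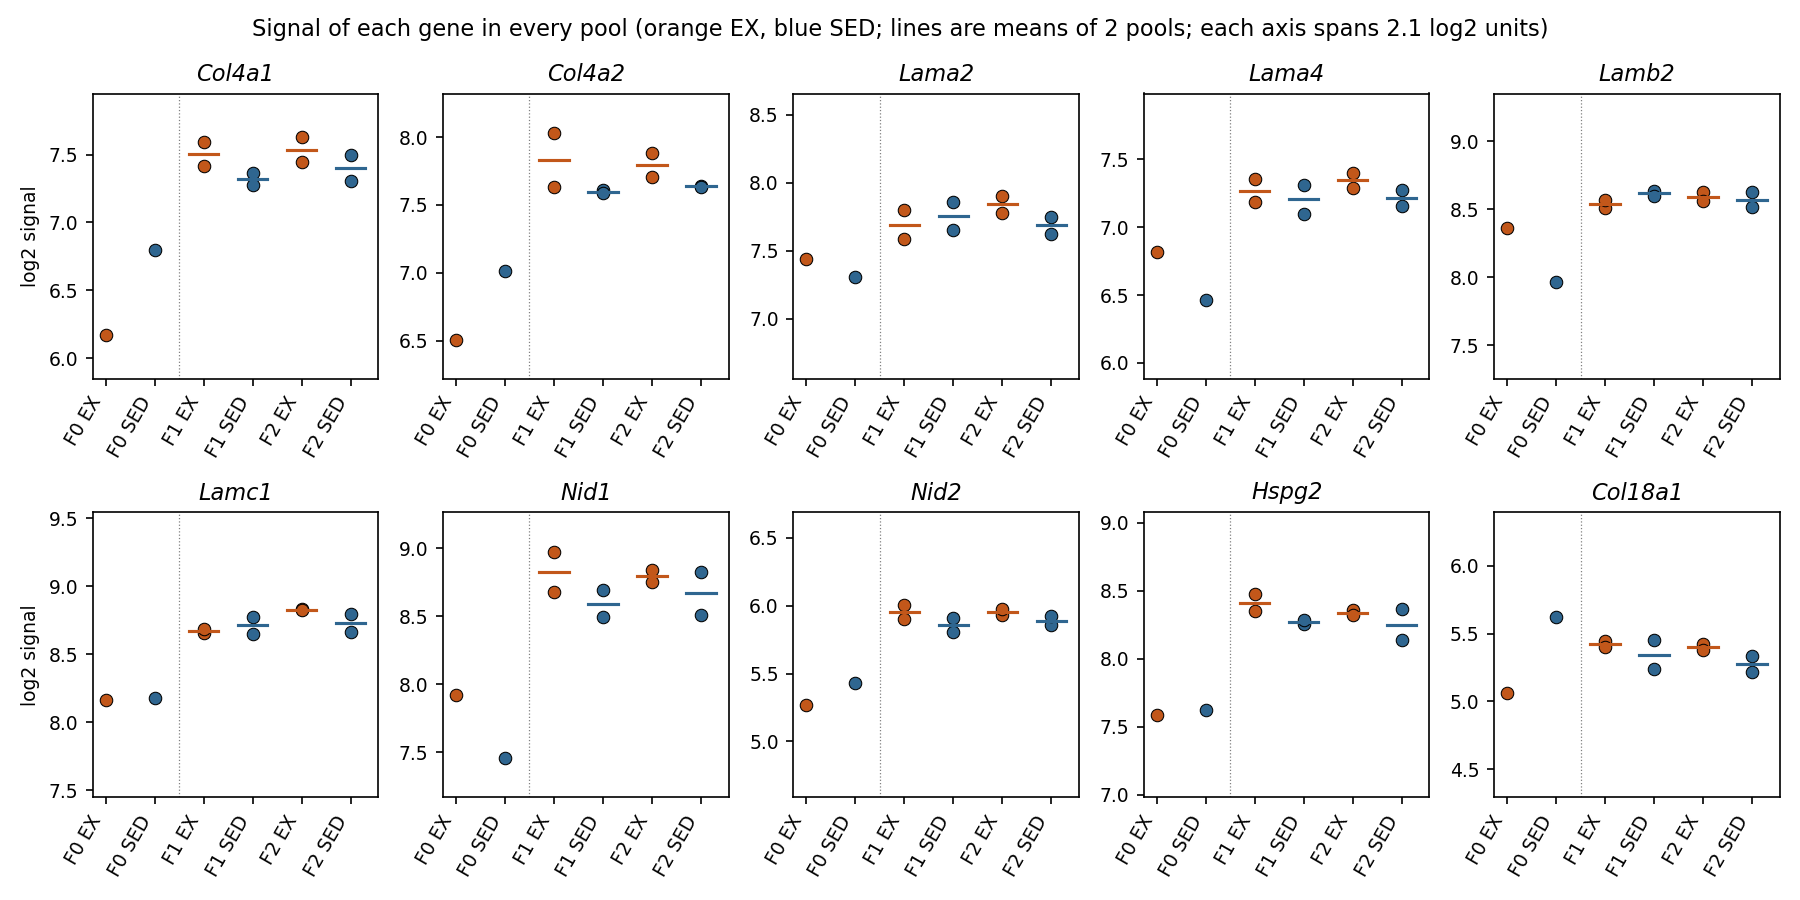
Log2 signal (vertical axis) of each basement membrane gene in every pool, by group (horizontal axis), with EX pools in orange, SED pools in blue and a line at the mean of the 2 pools of a descendant group. The F0 pools, left of the dotted line, lie below all descendant pools in 9 of the 10 panels, and in the Col18a1 panel they lie on either side of them.

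Col4a1 and Col4a2 encode the alpha-1 and alpha-2 chains that make up the common type IV collagen trimer. Col4a1 had a log2 signal of 6.17 in the F0 EX pool and 6.8 in the F0 SED pool, against 7.27 to 7.63 (median 7.43) in the 8 descendant pools. Col4a2 had 6.51 and 7.01 in the same F0 pools, against 7.59 to 8.03 (median 7.64) in the descendants. Neither gene's F0 pools overlapped the descendants, and in both genes the F0 EX pool was the lowest of the 10 arrays. The F0 mean of Col4a1 was 1.94-fold lower, a log2 difference of -0.96 (SE 0.156, 95% confidence interval -1.3 to -0.61, limma adjusted p = 0.00803). Col4a2 was lower by the same factor of 1.94, with a log2 difference of -0.95 (SE 0.155, interval -1.29 to -0.62, adjusted p = 0.00803). Both values depended on the F0 EX pool. Without it, the differences were -0.56 for Col4a1 (adjusted p = 0.0358) and -0.61 for Col4a2 (adjusted p = 0.0406). Without the F0 SED pool they were -1.35 and -1.3.

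The differences of the laminin chains ran from -0.62 to -0.37. Lama4 encodes the alpha chain of the laminin of endothelial basement membranes. It had a log2 signal of 6.81 in the F0 EX pool and 6.46 in the F0 SED pool, against 7.1 to 7.4 (median 7.28) in the descendants, with no overlap. Its log2 difference was -0.62 (SE 0.112, limma adjusted p = 0.0134), a 1.54-fold lower mean. Lamc1 encodes the gamma-1 chain that most laminins share. It had 8.16 and 8.18 in the F0 EX and F0 SED pools, nearly the same value, against 8.65 to 8.83 (median 8.73) in the descendants. Its log2 difference was -0.56 (SE 0.0996, adjusted p = 0.0118). Both calls were lost when the F0 SED pool, which stood apart, was left out, in a fit with 1 F0 pool. The difference there was -0.49 for Lama4, smaller than over all arrays, and -0.59 for Lamc1, slightly larger. Without the F0 SED pool and F1 EX pool 1 together, an alternative added after the data were seen, the differences were -0.47 for Lama4 and -0.61 for Lamc1. In that fit Lama4 was again not called, and Lamc1 was.

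Lama2 encodes the alpha-2 chain of the laminin around muscle fibres, and Lamb2 the beta-2 chain of laminin at the neuromuscular junction. Neither gene passed the threshold. Lama2 had 7.44 in the F0 EX pool and 7.31 in the F0 SED pool, against 7.58 to 7.9 (median 7.76) in the descendants. Lamb2 had 8.36 and 7.97, against 8.51 to 8.64 (median 8.58). The F0 pools of both genes lay below all descendants, by a small gap. The log2 differences were -0.37 for Lama2 (interval -0.62 to -0.12, limma adjusted p = 0.122) and -0.42 for Lamb2 (interval -0.67 to -0.17, adjusted p = 0.0877). When F1 EX pool 1 was left out, both passed it, with -0.4 (adjusted p = 0.0459) and -0.43 (adjusted p = 0.0475). Lamb2 depended on which F0 pool was used, with -0.63 (adjusted p = 0.0169) without the F0 EX pool and -0.2 without the F0 SED pool.

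Nid1, which encodes nidogen-1, a bridge between laminin and type IV collagen, had a difference of -1.03, the largest of the 10 genes over all arrays. Its log2 signal was 7.92 in the F0 EX pool and 7.46 in the F0 SED pool, against 8.5 to 8.97 (median 8.72) in the descendants. The F0 mean was 2.04-fold lower, a log2 difference with SE 0.129 (95% confidence interval -1.31 to -0.75, limma adjusted p = 0.00188). Without the F0 SED pool it was -0.89 (adjusted p = 0.047), less than the -1.35 of Col4a1 and the -1.3 of Col4a2 in the same fit. For Nid1 the F0 SED pool was the lowest array, whereas for the type IV collagens the F0 EX pool was. Nid2 encodes nidogen-2, the second member of the family. It had 5.27 and 5.43 in the F0 EX and F0 SED pools, against 5.8 to 6.01 (median 5.91) in the descendants. Its log2 difference was -0.56 (SE 0.102, adjusted p = 0.0134), and it was -0.44 (adjusted p = 0.0514) without the F0 EX pool.

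Hspg2 and Col18a1 encode the core proteins of perlecan and of collagen XVIII, the parent of endostatin. Hspg2 had a log2 signal of 7.58 in the F0 EX pool and 7.62 in the F0 SED pool, against 8.14 to 8.47 (median 8.33) in the descendants. The F0 pools of Hspg2 were close to each other and far from the rest, and its log2 difference was -0.71 (SE 0.104, interval -0.94 to -0.49, limma adjusted p = 0.00414), a 1.64-fold lower mean. Col18a1 had 5.06 in the F0 EX pool and 5.63 in the F0 SED pool, against 5.21 to 5.45 (median 5.39) in the descendants. The F0 EX pool was thus the lowest and the F0 SED pool the highest of its 10 arrays. Their mean differed from the descendants by -0.02 (interval -0.32 to 0.29, adjusted p = 0.97). This value depended on both F0 pools, with -0.35 without the F0 SED pool and 0.32 without the F0 EX pool.

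**Figure D2:**
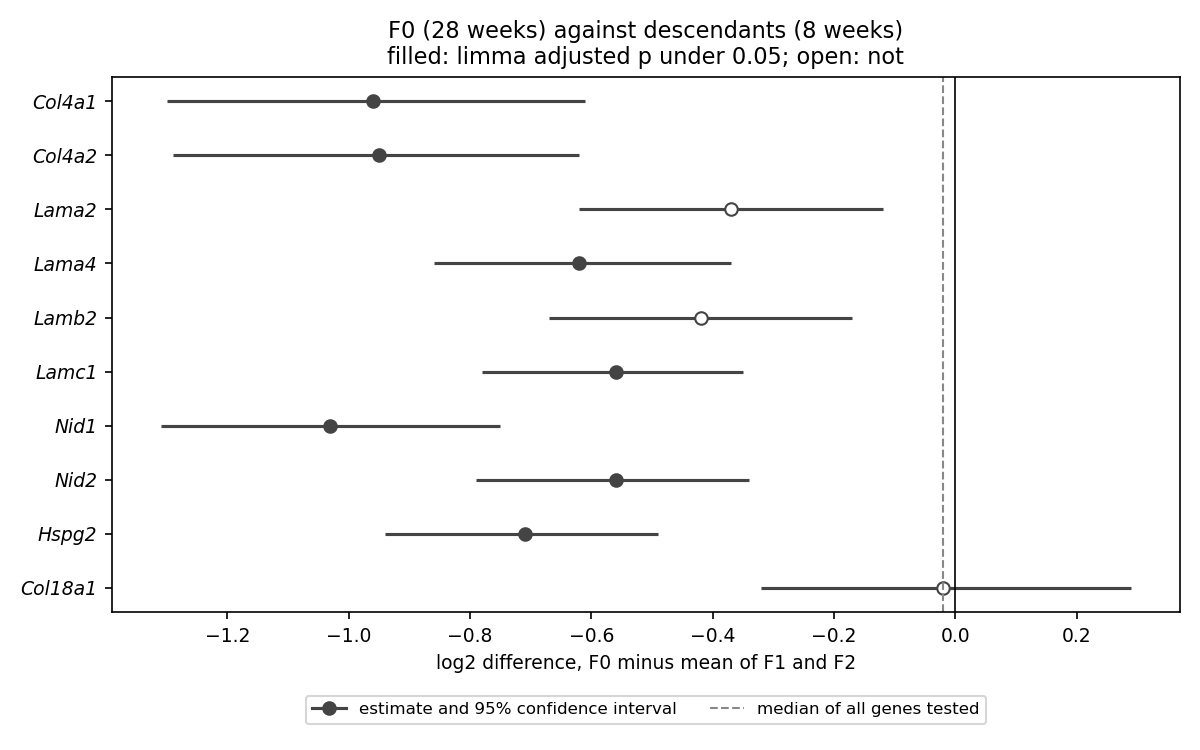
Difference in log2 signal (horizontal axis) between the F0 pools and the mean of F1 and F2 for each basement membrane gene (rows), with 95% confidence intervals from limma and filled points at an adjusted p under 0.05. Estimates run from -1.03 for Nid1 to -0.02 for Col18a1, and the dashed line marks the median of all genes tested at -0.02.

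Col4a1, Col4a2, Nid1 and Hspg2 were called lower in every fit that left out a single array. The number of genes called depended on the model and on the arrays used. With array weights estimated from the data, Nid1 alone was called (adjusted p = 0.0496). In the EX pools alone and in F0 against F1 alone, 0 of the 10 genes were called, where 9 and 14 of all genes were.

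Genes around the basement membrane were called in both directions. They are given here by list, with the number that passed the test over all genes. The number without the F0 SED pool follows, an alternative added after the data were seen. That fit left 1 F0 pool, and fewer of all genes were called in it. Of 19 other basement membrane components, 5 were lower in F0 pools and 1 was higher, with a median of -0.17. Sparc, which encodes a collagen-binding matrix protein, had a log2 signal of 9.18 in both F0 pools, against 10.65 to 11.01 in the descendants (difference -1.61, limma adjusted p = 8e-06). Lamb1, the beta-1 laminin chain, had 6.67 in the F0 EX pool and 6.52 in the F0 SED pool. In the descendants it had 7.22 to 7.63 (difference -0.78, limma adjusted p = 0.00261). Both genes had no overlap between F0 pools and descendants. Col15a1, a capillary and muscle basement membrane collagen, was lower as well (difference -0.83, adjusted p = 0.0199). Npnt, which encodes the integrin ligand nephronectin, was the gene that rose, with 5.56 and 5.95 in the F0 EX and F0 SED pools, against 4.74 to 5.31 in the descendants (difference 0.73, adjusted p = 0.00378). Without the F0 SED pool, 3 genes of this list were called lower and none higher: Sparc (-1.63, adjusted p = 0.000392), Lamb1 (-0.77, 0.0316) and Col15a1 (-1.12, 0.0315) passed, and Npnt did not (0.59, 0.0766).

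Among 13 genes for the folding, cross-linking and secretion of collagens, not of type IV alone, 3 fell and none rose, with a median of -0.18. Pxdn, the peroxidase that forms the sulfilimine cross-links of type IV collagen, had a log2 signal of 5.67 in the F0 EX pool and 5.54 in the F0 SED pool, against 6.69 to 7.07 in the descendants (difference -1.25, limma adjusted p = 0.000192). Serpinh1, the collagen chaperone, differed by -0.87 (adjusted p = 0.00414), and Lox, a lysyl oxidase, by -0.98 (adjusted p = 0.00803). Loxl1, a related oxidase, differed by -0.59 and did not pass the test (adjusted p = 0.0719). Pxdn alone passed without the F0 SED pool (-1.21, adjusted p = 0.00661), with -0.82 (0.0766) for Serpinh1 and -1 (0.0975) for Lox.

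The receptors and the fibre-side anchors showed few calls. Of 19 laminin and collagen receptors, 1 rose and 1 fell. Sdc2, the proteoglycan syndecan-2, was lower (difference -0.9, limma adjusted p = 0.00957) and Itgb5, an integrin beta chain, was higher (difference 0.56, adjusted p = 0.0234). Of 12 genes of the dystrophin complex, Nos1, the neuronal nitric oxide synthase, was higher (difference 0.7, adjusted p = 0.0171) and Sntb1, a syntrophin, lower (difference -0.55, adjusted p = 0.0398). Of 16 listed genes that glycosylate dystroglycan so that it binds laminin, 10 were measured under a single symbol. Of these 10, 0 passed limma's test, also at an unadjusted p under 0.05, with a median of 0. Among 14 genes of matrix degradation and its inhibitors, Mmp14, a membrane-bound metalloproteinase, was lower (difference -0.62, adjusted p = 0.016), and Mmp2, a gelatinase that cleaves type IV collagen, differed by -0.45 (adjusted p = 0.0646). None of these 5 calls held without the F0 SED pool, where limma gave -0.62 for Sdc2 (adjusted p = 0.181), 0.45 for Itgb5 (0.247), 0.41 for Nos1 (0.255), -0.56 for Sntb1 (0.215) and -0.73 for Mmp14 (0.0677).

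**Figure D3:**
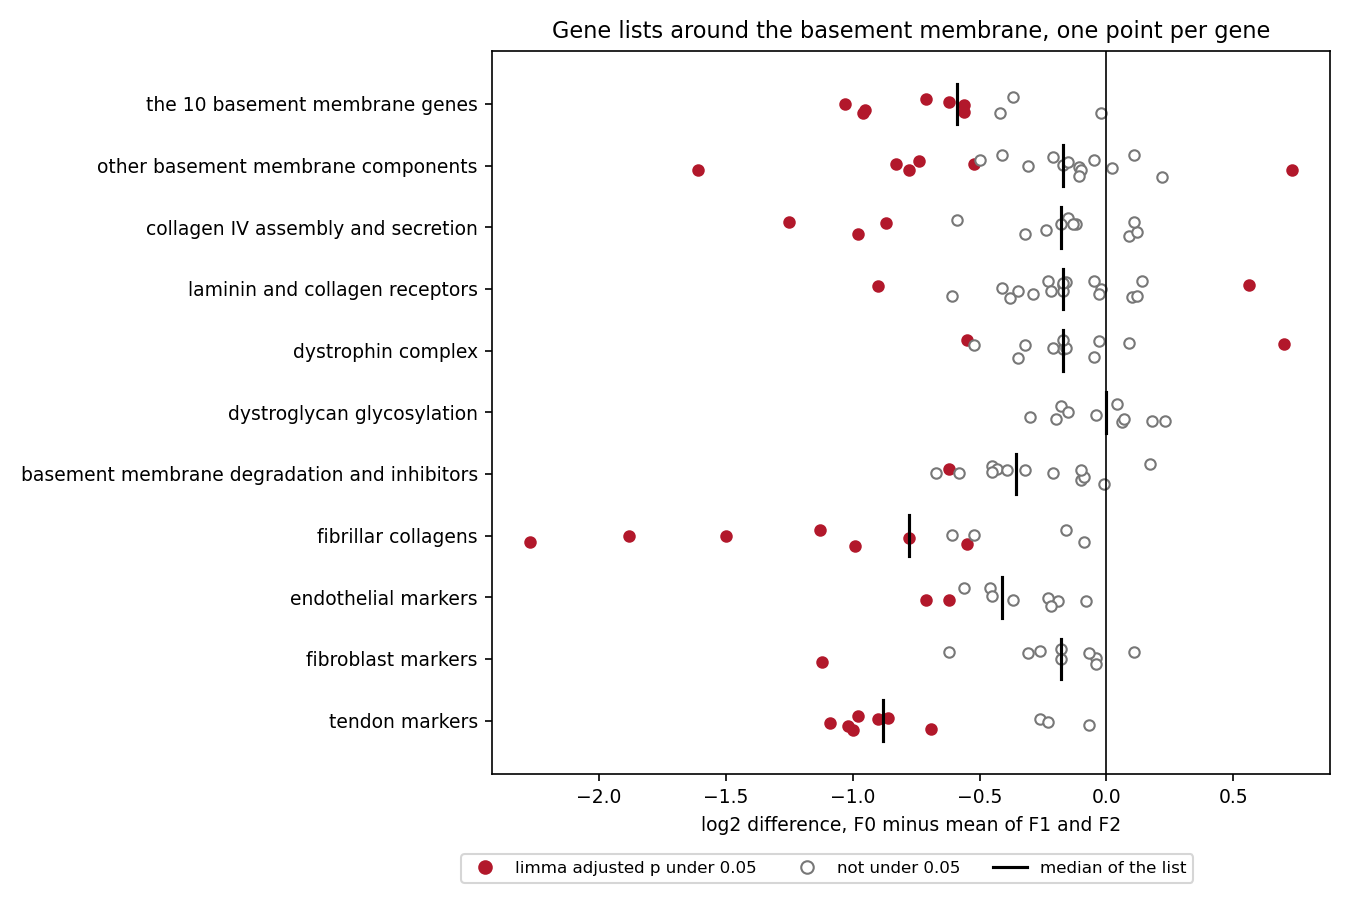
Difference in log2 signal between the F0 pools and the mean of F1 and F2 (horizontal axis) for each gene of the basement membrane group and of lists around it (rows), with filled points at a limma adjusted p under 0.05 and a bar at the median of each list. The basement membrane genes (median -0.59), the fibrillar collagens (median -0.78) and the tendon markers (median -0.88) lie to the left, and the dystroglycan glycosylation genes are centred on 0.

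Other matrix genes and markers of other cell types moved alongside. Of 11 fibrillar collagen genes, which build the fibres of connective tissue, 7 were lower in F0 pools, led by Col1a1 (difference -2.27, limma adjusted p = 1.47e-06). Of 10 tendon markers, 7 were lower (median -0.88), and the mean of the list lay 0.73 below the descendants' mean in the F0 EX pool and 0.69 below it in the F0 SED pool. Of 10 endothelial markers, Pecam1 and Cdh5, both junction proteins of vessel lining, were lower (-0.71 and -0.62, adjusted p = 0.0134 and 0.0268). The mean of the endothelial list was -0.28 in the F0 EX pool and -0.5 in the F0 SED pool relative to the descendants' mean, against -0.05 to 0.05 in the descendant pools. Of 10 fibroblast markers Mfap5 was lower (difference -1.12, adjusted p = 0.00414), with a list median of -0.18. Of 7 keratinocyte markers above the filter, out of 10 listed, 4 were higher, among them Krt5 with 4.55 and 5.73 in the F0 EX and F0 SED pools, against 2.45 to 3.87 in the descendants (difference 2.07, adjusted p = 0.00623). The mean of that list was 0.7 and 1.13 above the descendants' mean in the F0 EX and F0 SED pools, against -0.15 to 0.25 in the descendant pools. The filter at 3.23 used the mean over all arrays, the F0 pools included. Krtdap, also called higher, had 2.81 to 3.12 in the descendants and passed it only through its F0 values, 3.85 (EX) and 5.18 (SED). Most descendant values of Krt5 lay below the filter too. These 2 calls and the mean of the keratinocyte list thus depend in part on a selection by high F0 signal. No gene passed the test among 12 muscle fibre, 8 satellite cell, 10 pericyte and smooth muscle and 9 macrophage genes (medians -0.17, -0.19, -0.19 and -0.28). None passed among 8 adipocyte, 6 Schwann cell and 3 proliferation genes (medians 0.02, -0.25 and -0.01). The adipocyte, Schwann cell and proliferation lists held 10 genes each and the macrophage list 11. Their other genes had no probe set with a single symbol or lay below the filter. At an unadjusted p under 0.05, limma called 1 muscle fibre gene higher and 1 lower, 1 adipocyte gene higher, and 3 satellite cell, 4 pericyte and smooth muscle, 4 macrophage and 3 Schwann cell genes lower, where 7.61% of all genes were higher and 10% lower. Without the F0 SED pool, limma called 6 fibrillar collagen genes and 3 tendon markers lower and 1 keratinocyte marker higher, and no endothelial or fibroblast marker. Without F1 EX pool 1 instead, it called 3 receptor genes, 3 degradation genes, 4 endothelial, 2 fibroblast and 1 pericyte and smooth muscle marker lower, and 1 muscle fibre gene higher. Pecam1 differed by -0.47 without the F0 SED pool, and in that same fit Cdh5 differed by -0.8, Mfap5 by -0.79 and Krt5 by 1.47. The part of these other cell types in the values of the basement membrane genes was not tested.

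The next comparison set the exercised against the sedentary F0 animals. Each had 1 pool, so the difference has no replicate check and no test, and a size of 0.5 or more on the log2 scale was taken as a bound. Col4a1 was lower in the F0 EX pool by 0.63 (6.17 in F0 EX, 6.8 in F0 SED), Col18a1 by 0.56 (5.06 in F0 EX, 5.63 in F0 SED) and Col4a2 by 0.5 (6.51 in F0 EX, 7.01 in F0 SED). Of all genes, 5.38% were lower by that much and 15.3% higher. None of the 10 genes was higher by 0.5, and those nearest to it were Nid1 (difference 0.46, 7.92 in F0 EX and 7.46 in F0 SED), Lamb2 (0.4) and Lama4 (0.35). Lama2 differed by 0.13, Lamc1 by -0.02, Hspg2 by -0.04 and Nid2 by -0.16. The median difference was -0.03 over the 10 genes and 0.08 over all genes. Of 11 fibrillar collagens, 10 lay below 0 and 1 above (median -0.14), with 2 lower by 0.5 or more. Of 19 other basement membrane components, 14 lay below 0 and 5 above (median -0.08), with 2 lower and 1 higher by 0.5 or more. Markers of other cells differed between the same 2 pools: 3 of 7 keratinocyte markers were lower in F0 EX by 0.5 or more, down to -1.34, and 4 of 10 fibroblast markers higher and 1 lower. The median of 12 muscle fibre genes was 0.35, against 0.08 over all genes. Of 10 endothelial markers, 2 were higher by 0.5 or more (median 0.18), a share near the 15.3% of all genes. Their part in these values was not tested.

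These sizes depended on how the 2 arrays were scaled. The 3 genes kept a difference of 0.5 or more when arrays were centred on the median of the kept genes (Col4a1 -0.74, Col4a2 -0.62, Col18a1 -0.68) and after quantile normalization (-0.8, -0.71 and -0.64). When arrays were centred on the median of all probe sets, an alternative added after the data were seen, they were -0.48, -0.36 and -0.41, short of the bound, while Nid1 (0.61) and Lamb2 (0.54) passed it upward. Over all genes the counts past the bound were 1835 higher and 644 lower as deposited, 1197 and 1162 with the kept genes centred, 1280 and 927 after quantile normalization, and 2932 and 305 with all probe sets centred. The direction of the type IV collagens, lower in F0 EX, was the same in each of these scalings. The F0 SED pool is also the array that stood apart over all genes.

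**Figure D4:**
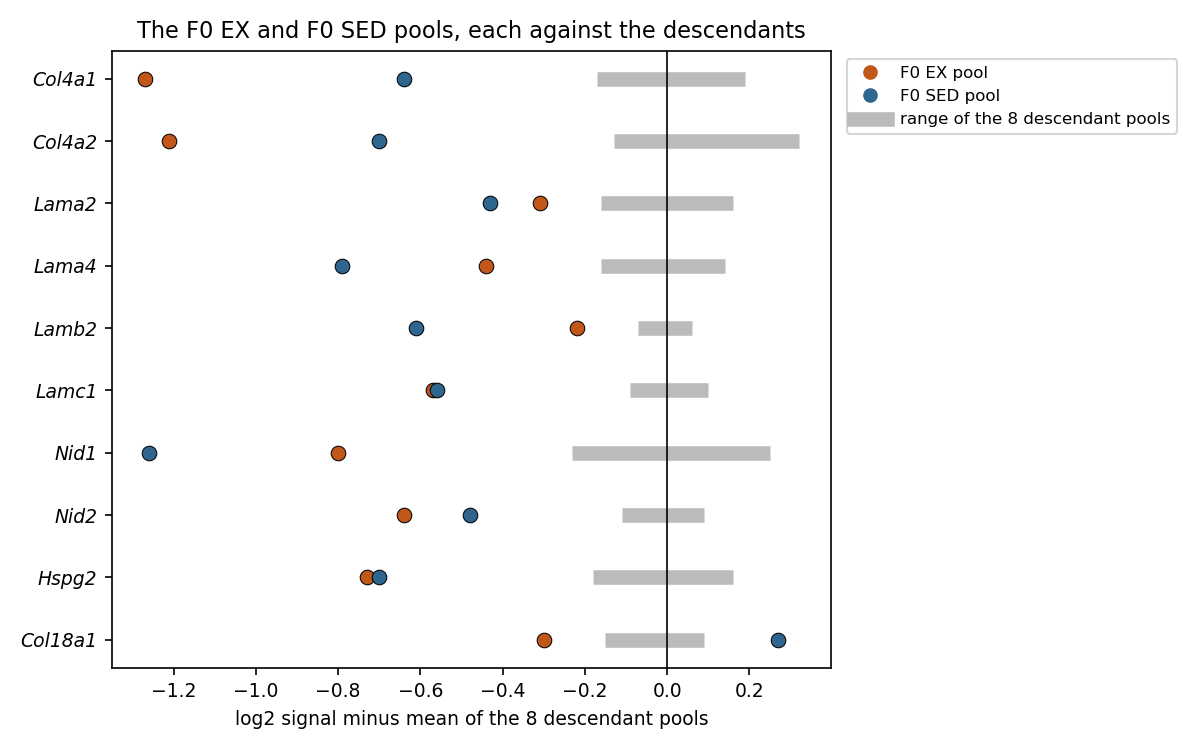
Log2 signal minus the mean of the 8 descendant pools (horizontal axis) for each basement membrane gene (rows), with the F0 EX pool in orange, the F0 SED pool in blue and the range of the descendant pools in grey. The F0 EX pool is the lower of the F0 pools for Col4a1, Col4a2 and Col18a1, and the F0 SED pool is the lower for Nid1, Lamb2, Lama4 and Lama2.

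The comparison of ancestry asked whether descendants of exercised animals differed from descendants of sedentary animals. Over F1 and F2, with 4 EX and 4 SED pools, 0 of the 10 genes passed the test in either direction, and 0% of all 11963 genes did (smallest adjusted p in limma 0.888). At an unadjusted p under 0.05, 0 of the 10 genes were called, where 296 of all genes were higher (2.47%) and 301 lower (2.52%). The median confidence interval reached 0.23 to either side of an estimate over all genes. Differences as small as those of the 10 genes below were thus not detectable with this number of arrays. Estimates for the 10 genes ran from -0.03 for Lamb2 to 0.19 for Col4a2, and 9 of them lay above 0, where 53.3% of all genes did. EX and SED pools overlapped in all 10 genes, while the EX pools of 1.75% of all genes lay above all SED pools and those of 1.28% below them.

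Col4a2 had a log2 signal of 7.63 to 8.03 in the 4 EX pools and 7.59 to 7.64 in the 4 SED pools. Its difference was 0.19 (interval -0.03 to 0.42, limma unadjusted p = 0.0879, adjusted p = 0.888). F1 EX pool 1, which stood apart over all genes, was the highest at 8.03, and the other EX pools lay at 7.63, 7.7 and 7.88. Without that pool the difference was 0.1. Nid1 had 8.68 to 8.97 in the EX pools and 8.5 to 8.83 in the SED pools, with a difference of 0.18 (interval -0.06 to 0.42), or 0.11 without F1 EX pool 1. Col4a1 had 7.41 to 7.63 in the EX pools and 7.27 to 7.49 in the SED pools, with a difference of 0.16 (interval -0.04 to 0.36). The laminin chains differed by less, with 0.1 for Lama4, 0.05 for Lama2, 0.03 for Lamc1 and -0.03 for Lamb2. Hspg2 differed by 0.12, Col18a1 by 0.1 and Nid2 by 0.08. The intervals of all 10 genes held 0.

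**Figure D5:**
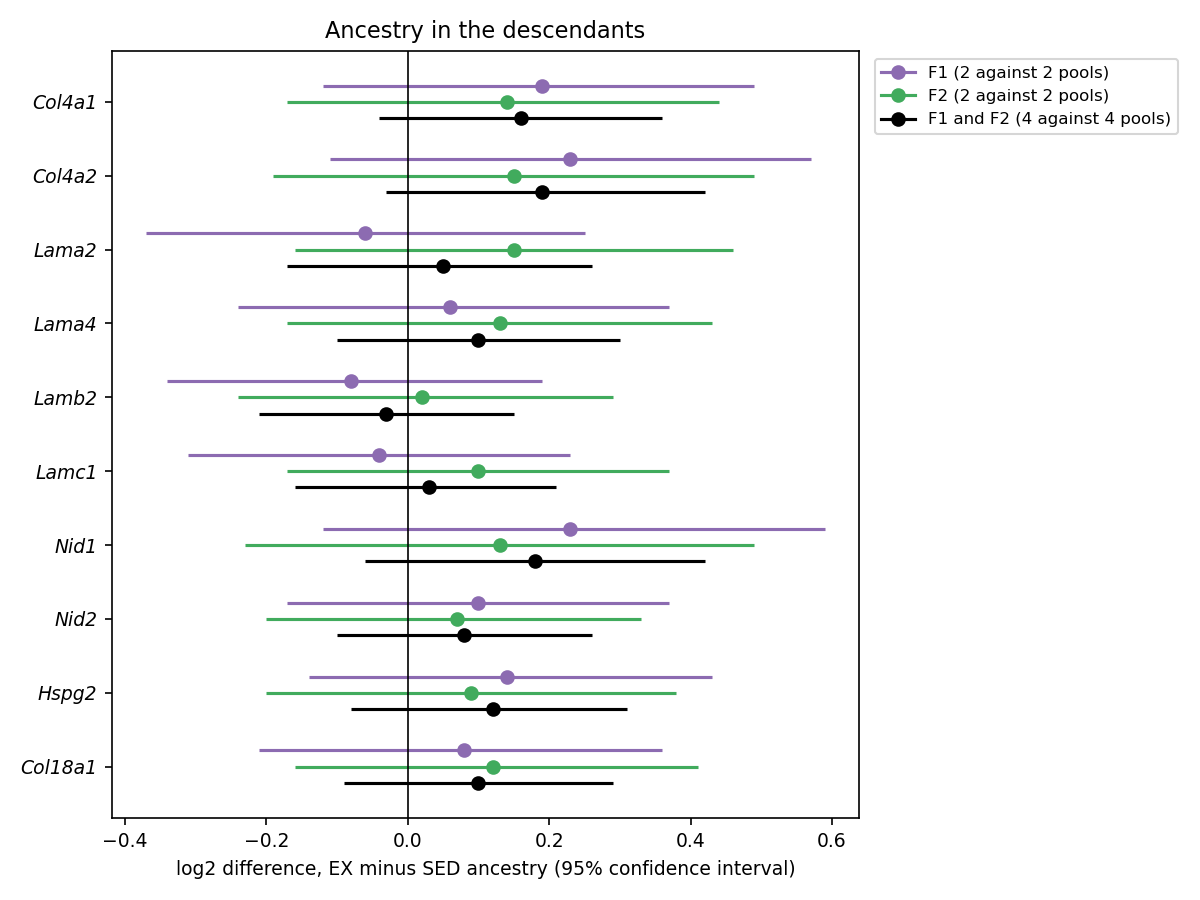
Difference in log2 signal between EX and SED ancestry (horizontal axis) for each basement membrane gene (rows), with 95% confidence intervals from limma, in F1, in F2 and over both. Estimates over both generations run from -0.03 to 0.19, and every interval holds 0.

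Within single generations, with 2 pools against 2, 0 of the 10 genes passed the test in F1 or in F2, as did 0% of all genes (smallest limma adjusted p 0.804 in F1 and 1 in F2). At an unadjusted p under 0.05, 0 of the 10 genes were called in either generation, where 1.98% of all genes were higher and 2.9% lower in F1, and 1.81% higher and 2.64% lower in F2. In F1 the estimates ran from -0.08 for Lamb2 to 0.23 for Col4a2 and Nid1, with a median of 0.09. Without F1 EX pool 1, Col4a2 differed by 0.03 and Col4a1 by 0.1, against 0.19 for Col4a1 with it, and the median was 0.05. Both EX pools lay above both SED pools for Col4a1, Col4a2 and Hspg2, where 13% of all genes did so, and below them for Lamb2, where 16.6% did. In F2 the estimates ran from 0.02 for Lamb2 to 0.15 for Col4a2 and Lama2, with a median of 0.13, and all 10 lay above 0, where 60.7% of all genes did. Without F2 SED pool 1 the median was 0.04 with 7 above 0, and with arrays centred on their medians it was 0.08 with 9 above 0. The 10 tendon markers also all lay above 0 in F2 (median 0.25). In F1 all 10 lay below 0 (median -0.2), where 7 of the 10 basement membrane genes lay above 0 and 3 below. The part of the tendon markers in these values was not tested. Both F2 EX pools lay above both F2 SED pools for Col4a2, Lama2, Lama4, Lamc1, Nid2 and Col18a1, where 25.8% of all genes did so, and below them for none of the 10, where 14.6% did. Of the 10 genes, Col4a2 had both EX pools above both SED pools in F1 and in F2, where 3.55% of all genes did so, with 7.63 and 8.03 in F1 EX and 7.59 and 7.61 in F1 SED, and with 7.7 and 7.88 in F2 EX and 7.63 and 7.64 in F2 SED. The difference between the F2 and the F1 ancestry effects was -0.1 to 0.21 over the 10 genes, and 0 of them, with 0% of all genes, passed its test (smallest adjusted p 0.919), nor did any of the 10 at an unadjusted p under 0.05, where 2.28% of all genes were higher and 2.06% lower.

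F2 and F1 pools also showed no call among the 10 genes, with 0% of all genes called (smallest limma adjusted p 0.111). Estimates of F2 minus F1 ran from -0.05 for Hspg2 to 0.09 for Lamc1, and the 4 F2 pools overlapped the 4 F1 pools in all 10 genes, where 1.77% of all genes had all F2 pools above all F1 pools and 1.11% below them. At an unadjusted p under 0.05, 0 of the 10 genes were called, where 2.45% of all genes were higher and 1.81% lower.

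Signals of most of the basement membrane genes varied less among the 8 descendant pools than that of the median gene. The genes compared were not matched for signal. The standard deviation was 0.049 for Lamb2 and 0.064 for Nid2, at percentiles 1 and 3 of all genes, and highest for Col4a2 (0.158) and Nid1 (0.165), against a median of 0.154 over all genes. Averaged over the 10 genes, the descendant pools lay between -0.12 and 0.09 of their own mean, whereas the F0 EX pool lay at -0.65 and the F0 SED pool at -0.59.

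The 10 genes differed in how closely they followed each other. Over all 10 arrays, which the gap between F0 pools and descendants dominates, each gene was set against the mean of the other 9. Hspg2 followed the others with a Pearson r of 0.981, Lamb2 with 0.788 and Col18a1 with 0.086. Among the 8 descendant pools alone, r ran from -0.56 (Col4a2 with Lamb2) to 0.86 (Lama4 with Nid1) over the 45 pairs of genes, with a median of 0.4. Col4a1 and Col4a2, the pair with the shared start region shown above, had a Pearson r of 0.82 (exact permutation p = 0.0208, Benjamini-Hochberg adjusted over 45 pairs 0.188) and a Spearman rho of 0.74 (exact permutation p = 0.0458, adjusted 0.324). Without the 2 pools farthest from the Col4a1 median, F1 EX pool 1 and F2 EX pool 2, r was 0.45 over 6 pools, over a narrower range of Col4a1, and without F1 EX pool 1 alone it was 0.82 over 7 pools. The relation did not pass the threshold after adjustment.

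The genes whose profile over all 10 arrays was most like the mean profile of the 10 were Col3a1 (r = 0.995), Antxr2 (0.99), Col1a1 (0.99), Col6a3 (0.989) and Sparc (0.979). These 5 genes differed by -2.27 to -0.48 between F0 pools and descendants, and the correlation over 10 arrays describes that gap. Over the 8 descendant pools they were Mta2 (0.984), Myh7 (0.974), Ldb1 (0.964), Lama3 (0.959) and Mmp2 (0.951), none of which is among the first 5.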

How the data were processed

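Messenger RNA was measured on Affymetrix whole-transcript arrays, 1 for each of 10 pools. The authors deposited log2 signals of 35557 probe sets, and the range of 0.966 to 14.2 was taken to show the log2 scale. They were made with Affymetrix Expression Console, per the submitters' processing notes. Version, normalization and summarization were not given in the sources used here. Values were used as deposited.

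Symbols came from the annotation of the array platform at GEO, which may be out of date. A single symbol belonged to 21789 probe sets, several symbols to 1621 and no symbol to 12147, and only probe sets of the first kind named a gene. The probe set with the highest mean stood for a gene. The filter kept genes whose mean reached the 40th percentile (3.23).

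The test was limma 3.58.1 in R 4.3.3, with Benjamini-Hochberg adjustment over 11963 genes and a threshold of 0.05, after a check on simulated data. Groups came from the labels. F0 was compared with the average of both descendant generations, with ancestry as a covariate. Ancestry and F2 against F1 came from an additive model of 8 arrays, single generations and their difference from a model of 4 groups. The number of arrays limits the precision. Alternatives changed the scaling, the filter, the probe set rule, the variance model and the arrays used. Pools with the same number did not deviate together across groups. Named were the 10 genes in every comparison, up to 4 genes of each list by smallest p in F0 against descendants, and the 5 genes most like the mean profile. The genes and lists were chosen with earlier results of these data known.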

Additional observations from a re-analysis of the deposited data

How the results depend on the processing

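Of 230 values of the 10 genes in F0 against descendants under other settings, 197 kept their direction and their side of the threshold, 24 kept the direction and lost the call, 4 gained a call and 5, all of Col18a1, changed direction. The number of genes called (7) was 1 with array weights, 0 in EX pools alone and 0 in F0 against F1 alone, and ran from 5 to 9 when arrays were left out in turn. Over all genes, the 279 calls became 38 with array weights, 2255 in SED pools alone, 9 in EX pools alone, 14 against F1 alone and 86 to 1231 without single arrays, lowest without F0 SED and highest without F0 EX, with 584 without F1 EX pool 1, 185 without F2 EX pool 2, 181 without F2 SED pool 2 and 170 without both F0 SED and F1 EX pool 1. EX pools alone and SED pools alone hold fewer arrays. Calls fell in EX pools alone and rose in SED pools alone, and the cause of the changes in number was not tested. Col18a1 was 0.02 after quantile normalization, 0.32 in SED pools alone and 0.01 against F2 alone, and ran from -0.35 to 0.32 without single arrays.

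In every ancestry and generation comparison, 0 of the 10 genes were called under each alternative run. Over all genes, F1 ancestry had 1046 calls without F1 EX pool 2 and 8 without F1 SED pool 1, the difference of F2 and F1 effects 143 and 5, and F2 against F1 2 with a trended robust variance and 1 with array weights, against 0. Small estimates changed sign. With the F0 pair included, the ancestry value of Lamb2 was 0.06 and that of Col18a1 -0.03. Without single arrays it ran from 0 to 0.11 for Lama2 and from -0.01 to 0.07 for Lamc1. The F2 minus F1 effect difference was 0.04 for Col4a1 and 0.01 for Col4a2 with all probe sets centred, and ran from -0.14 to 0.04 and from -0.28 to 0.12 without single arrays. F2 minus F1 for Col4a2 was -0.01 with kept genes centred and -0.02 after quantile normalization, and ran from -0.07 to 0.09. The centring on all probe sets moved the median of all genes to 0.13 in the effect difference, against 0.04 as deposited. No fit of F0 against descendants with a replicate block was possible, since the F0 pools carry no number. In the ancestry comparison the replicate block gave 0 calls among the 10 genes and a median of 0.1, as without it. Correlations of pool differences between groups ran from -0.11 to 0.06, so the numbers were not taken to pair the pools. Single genes were also checked for an outlying array among the EX, the SED and all descendant pools (30 checks over the 10 genes, by the gap to the nearest array over the range), and none was found, where chance gives about 1 in 20.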
